A study of Mus musculus with 20 samples.

Results

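The transcripts followed here are those of the IL-1 family and of the inflammasome that processes its cytokines: the agonists *Il1a* and *Il1b*, the receptor antagonist *Il1rn*, *Il18* and its binding protein *Il18bp*, the sensor *Nlrp3*, the adaptor *Pycard*, the inflammatory caspases *Casp1* and *Casp4*, and the pore former *Gsdmd*. These 10 genes were chosen by name, among 55487 identifiers in the count table. RNA-seq was done on BV-2 cells, an immortalised mouse microglial line, in 4 groups of 5 cultures. The groups were young (low passage) and aged (kept in culture for a long time by repeated passaging) cells, each left untreated or exposed to bacterial lipopolysaccharide (LPS) at 100 ng/ml for 6 hours. All cultures share a wild-type genotype and derive from a single line, so aged stands for prolonged culture of a dividing line and not for an old animal. P-values measure the spread between cultures of that line. In the study's methods, aged cells were frozen after the long culture and used as aliquots. Whether the 5 aged cultures come from separate long-term cultures is not stated, so p-values cannot be read as the spread between such cultures. The study asked how long-term culture alters the state of microglia and their reaction to LPS. The replicate numbers 1 to 5 are given in the labels as batches, with every group present once in each batch.

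Interleukin-1α and interleukin-1β activate the same receptor, and the antagonist encoded by *Il1rn* occupies that receptor without signalling. Interleukin-1β and interleukin-18 are made as inactive precursors. An inflammasome, assembled from a sensor such as NLRP3 and the adaptor ASC (the product of *Pycard*), activates caspase-1, which cleaves both precursors and also gasdermin D, whose fragment forms pores in the plasma membrane. Caspase-4 (often called caspase-11 in the mouse) binds LPS in the cytosol and cleaves gasdermin D directly. In microglia and macrophages, LPS sensed by Toll-like receptor 4 raises transcription of several of these genes through NF-κB, a step known as priming. The counts measure transcripts only, so neither cleavage nor release of a cytokine was observed.

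Total counts per library ran from 11371508 to 16829292, and 3 counts in a library corresponded to 0.165 to 0.296 CPM (counts scaled to 1000000 per library, with TMM-scaled library sizes). By group mean count, all 12 microglia and macrophage markers were above that limit in untreated cells and 11 were under LPS, with sums of 2550 to 4660 CPM. Of these markers, *Cx3cr1* and *P2ry12* were near the limit, with medians of 0.504 and 0.454 CPM over all libraries and a lowest value of 0. Markers of astrocytes (0 of 5 above the limit in untreated cells, 1 of 5 under LPS), neurons (0 of 5) and fibroblasts (0 of 5) summed to at most 1.33 CPM, and those of oligodendrocytes (2 of 5 in untreated cells, 1 of 5 under LPS) to at most 1.78 CPM. *Aqp4*, *Snap25* and *Col1a2* were at 0 in all libraries. In a bulk library, fewer cells with a transcript and less of it per cell cannot be told apart.

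Promoter sequences are shown for the agonist pair, whose transcripts rose most under LPS, and for *Nlrp3* and *Casp4*, the members whose windows held an NF-κB consensus. They are the 250 bases before a RefSeq transcription start (GRCm38.p6, written 5′ to 3′ on the gene's strand, with every motif match in capitals). *Il1a* and *Il1b* lie 54.6 kb apart on chromosome 2, on the minus strand, in windows chr2:129309973-129310222 and chr2:129371140-129371389. The *Nlrp3* window is chr11:59541319-59541568 and that of *Casp4* is chr9:5308599-5308848, both on the plus strand. Of the 2 starts listed for each of these genes, the one shown holds the same consensus matches as the other in *Casp4* and the only match in *Nlrp3*.
Il1a: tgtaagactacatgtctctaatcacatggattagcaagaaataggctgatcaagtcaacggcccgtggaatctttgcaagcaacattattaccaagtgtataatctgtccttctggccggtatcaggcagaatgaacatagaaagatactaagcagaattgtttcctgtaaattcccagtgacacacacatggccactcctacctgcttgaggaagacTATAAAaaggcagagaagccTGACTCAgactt
Il1b: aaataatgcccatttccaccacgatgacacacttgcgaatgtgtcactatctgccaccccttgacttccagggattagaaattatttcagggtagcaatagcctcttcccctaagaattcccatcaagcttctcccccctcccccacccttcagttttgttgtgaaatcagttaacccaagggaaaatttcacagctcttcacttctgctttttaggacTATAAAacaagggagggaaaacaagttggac
Nlrp3: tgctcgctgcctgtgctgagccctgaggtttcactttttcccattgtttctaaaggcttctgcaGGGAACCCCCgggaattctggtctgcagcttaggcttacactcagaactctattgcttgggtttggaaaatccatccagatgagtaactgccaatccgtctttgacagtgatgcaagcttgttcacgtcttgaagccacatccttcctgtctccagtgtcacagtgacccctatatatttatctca
Casp4: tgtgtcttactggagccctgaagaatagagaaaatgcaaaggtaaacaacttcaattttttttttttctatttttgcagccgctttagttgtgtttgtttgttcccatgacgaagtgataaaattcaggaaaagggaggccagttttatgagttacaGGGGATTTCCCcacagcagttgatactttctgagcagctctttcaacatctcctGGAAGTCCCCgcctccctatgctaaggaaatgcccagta

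Both agonist promoters held a TATA box (TATAAA), starting 32 bases before the start in *Il1a* and 31 bases in *Il1b*. That hexamer was also in the window of *Il18*, on the opposite strand, 175 bases before the start. All motifs were sought on both strands, and this hexamer was found in 12.4% of all 32851 promoter windows of the same length. *Il1a* also held an AP-1 motif (TGANTCA) 12 bases before its start, and a window of *Il1rn* held it at 141 bases. AP-1 was found in 6.75% of windows. *Casp4* held 3 matches to the NF-κB consensus, of which those starting at 93 and 92 bases overlap and the other starts at 39 bases, and *Nlrp3* held 1 match at 186 bases. Of the 9 members with a window in the RefSeq table, only *Nlrp3* and *Casp4* matched that consensus, against 7.25% of all windows. The interferon-response motif GAAANNGAAA was in no member's window (2.98% of all windows), and the C/EBP motif TTGCNNAA was in those of *Il18bp* and *Pycard* (9.56% of all windows). A match describes letters in the window and is not evidence of a bound site.

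LPS raised transcripts of the family in both ages. All 9 members that could be tested rose in young cells, where 31.2% of the 12799 genes tested rose, and 7 rose in aged cells, where 27.5% did. In cells given LPS, 7 members were lower in the aged than in the young cultures (15.0% of all genes were lower), led by *Il1b*, *Il1a* and *Il18*. Without LPS, 3 members were lower in aged cells (7.81% of all genes): *Casp4*, *Nlrp3* and *Gsdmd*. No member was called higher in aged than in young cells in either condition, by edgeR, by DESeq2 or at an unadjusted p below 0.05 in edgeR. Over all genes, edgeR called 3.71% higher without LPS and 14.0% with LPS. With 9 members tested, the absence of higher calls is near those shares and is no result about the family. Calls given without another test are edgeR's quasi-likelihood test at a Benjamini-Hochberg adjusted p below 0.05 over all genes tested. The remaining member, *Pycard*, had no count in any library. *Il1b* entered the test only through its LPS-treated libraries, so it had to be high under LPS and its call is no support for a response of the family.

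**Figure D1:**
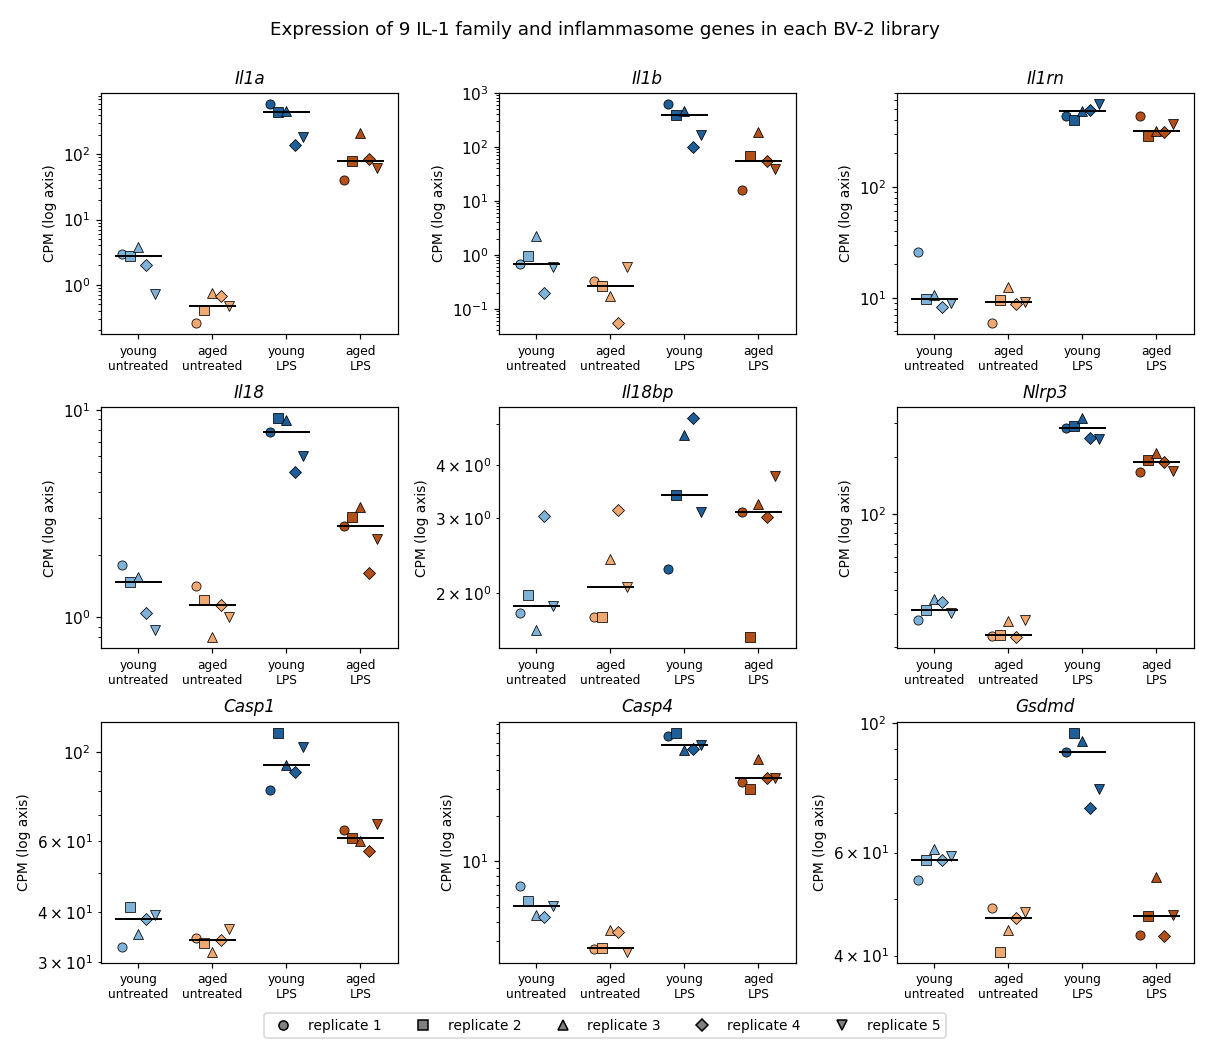
CPM (log axis) of the 9 members with counts in each of the 20 libraries, by group; symbols are replicate numbers and bars are medians of 5. At each age, LPS-treated libraries lie above the untreated ones of that age for *Il1a*, *Il1b*, *Il1rn*, *Il18*, *Nlrp3*, *Casp1* and *Casp4*, while those of *Gsdmd* do so in young cells and overlap in aged cells.

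*Il1a* (ENSMUSG00000027399, chromosome 2, 129299610 to 129309972 on GRCm38) encodes the agonist that is active without cleavage. In young untreated cultures its level was 2.97, 2.75, 3.8, 1.98 and 0.732 CPM in replicates 1 to 5. Aged untreated cultures had 0.259, 0.404, 0.742, 0.659 and 0.466 CPM, which are 4 to 13 counts per library. Each aged culture was below the young culture of its own number, and the groups overlapped only through the low young replicate 5. The log2 fold change of -2.23 ± 1.04 (SE, n = 5 per group) did not pass in edgeR over all libraries (adjusted p = 0.18), although DESeq2's Wald test gave an adjusted p of 0.00114, and edgeR on the untreated groups alone gave 0.00217.

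After LPS, *Il1a* reached 600, 453, 461, 141 and 188 CPM in young cultures. It reached 40.7, 78.8, 214, 85.3 and 61.6 CPM in aged cultures. Aged replicate 3 lay above young replicates 4 and 5, and the other aged cultures lay below every young one. The rise was 149-fold in young cells (log2 7.22 ± 0.53, edgeR adjusted p = 4.67e-11) and 183-fold in aged cells (log2 7.52 ± 0.65, edgeR adjusted p = 1.67e-09), from a lower start. Under LPS the aged level was 3.82-fold lower (log2 fold change -1.94 ± 0.37, edgeR adjusted p = 3.67e-04, n = 5 per group). The difference between the fold responses was 0.30 ± 1.14 (log2, aged minus young) with an adjusted p of 0.939 in edgeR. That SE is too large to separate equal from unequal responses.

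*Il1b* (ENSMUSG00000027398, chromosome 2, 129364570 to 129371139) encodes the agonist that needs caspase-1. Its untreated level was close to the limit of detection, at 0.69, 0.959, 2.23, 0.198 and 0.599 CPM in young and 0.323, 0.269, 0.171, 0.0549 and 0.599 CPM in aged cultures, the latter 1 to 9 counts per library. After LPS, the young cultures had 633, 390, 469, 98.5 and 166 CPM and the aged 15.9, 67.6, 191, 54.4 and 39.6 CPM. The same cultures stood out as for *Il1a*: young replicates 4 and 5 were low, and aged replicate 3 was the highest of its group. *Il1b* was 4.74-fold lower in aged than in young LPS-treated cells (log2 fold change -2.25 ± 0.47, edgeR adjusted p = 9.77e-04), and lower in 5 of 5 same-numbered pairs. Leaving out aged replicate 3 or any other library kept this call and that of *Il1a* (edgeR adjusted p at most 0.017 and 0.0109 over the 22 alternatives of each). The fitted responses were log2 8.50 ± 0.75 in young and 8.04 ± 0.92 in aged cells, values that lean on few untreated counts.

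*Il1rn* (ENSMUSG00000026981, chromosome 2, 24336853 to 24351494) encodes the antagonist and varied less between cultures than the agonists did under LPS. Untreated cultures had 25.7, 9.72, 10.6, 8.24 and 9.05 CPM when young and 5.95, 9.49, 12.4, 8.73 and 9.12 CPM when aged. Young replicate 1 stood apart at 25.7 CPM, and the other untreated cultures of both ages intermixed. LPS raised *Il1rn* 37.4-fold in young cells, to 430, 396, 477, 492 and 560 CPM. In aged cells the rise was 37.5-fold, to 437, 286, 321, 313 and 366 CPM. Both rises passed (edgeR adjusted p = 1.26e-14 and 3.22e-14), and they differed by log2 0.01 ± 0.30, adjusted p = 0.996 in edgeR. That value turned to -0.66 (adjusted p = 0.0287) when batch 1 was left out, so it rests on that batch, which held the highest untreated young and the highest LPS-treated aged culture. The aged level under LPS was 1.37-fold lower (log2 fold change -0.45 ± 0.19) and missed the threshold in edgeR (adjusted p = 0.0803). In edgeR it passed with the batch as a block (adjusted p = 0.0448), without aged replicate 1 (adjusted p = 0.0433) and on the LPS groups alone (adjusted p = 0.0129). Of all 22 alternatives, 5 called it, with adjusted p by edgeR or DESeq2 of 2.40e-04 to 0.215 over the 22.

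**Figure D2:**
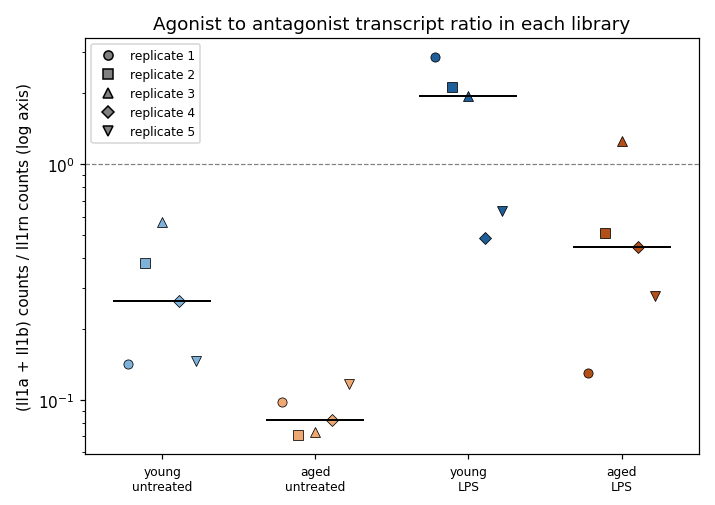
Ratio of *Il1a* plus *Il1b* counts to *Il1rn* counts in each library (log axis), with replicate symbols and group medians; the dashed line marks equal counts. Medians were 0.264 and 0.0818 in young and aged untreated libraries and 1.95 and 0.446 after LPS.

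The balance of agonist and antagonist counts within a library needs no scaling between libraries. In young LPS-treated cultures the ratio of *Il1a* plus *Il1b* to *Il1rn* was 2.86, 2.13, 1.95, 0.487 and 0.632. In aged LPS-treated cultures it was 0.13, 0.511, 1.26, 0.446 and 0.277. Agonist counts thus exceeded antagonist counts in young replicates 1 to 3 and in aged replicate 3, and in no other library. Without LPS the ratio was 0.142 to 0.568 in young and 0.0709 to 0.117 in aged cultures, with no overlap. These ratios are a description and were not tested. Lengths of the merged annotated exons differ (1974 bases in *Il1a*, 1907 in *Il1b* and 5535 in *Il1rn*), which keeps a ratio of 1 from meaning equal molecules.

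*Il18* (ENSMUSG00000039217, chromosome 9, 50554827 to 50581840) encodes a cytokine known for driving interferon-γ production. It was expressed at a low level in untreated cells, at 1.79, 1.47, 1.57, 1.05 and 0.865 CPM in young and 1.42, 1.21, 0.799, 1.15 and 0.999 CPM in aged cultures, and these groups overlapped (log2 fold change -0.28 ± 0.27, edgeR adjusted p = 0.566). LPS brought it to 7.8, 9.12, 8.97, 5 and 5.97 CPM in young cells but to 2.74, 3.05, 3.38, 1.63 and 2.39 CPM in aged cells. Every young LPS-treated culture was above every aged one. The rise was 5.42-fold in young (log2 2.44 ± 0.22) and 2.36-fold in aged cells (log2 1.24 ± 0.24), and the aged level was 2.78-fold lower under LPS (log2 fold change -1.47 ± 0.20, edgeR adjusted p = 9.61e-06). *Il18* was one of 3 members whose fold response itself was smaller in aged cells (2.27% of all genes), with a difference of log2 -1.20 ± 0.34 and an adjusted p of 0.0343 in edgeR and a smaller response in 5 of 5 batches. With the batch as a block the adjusted p was 0.00535. This call rested on 13 to 130 counts per library and was lost, at adjusted p of 0.0515 to 0.0741, without any of young untreated replicates 2, 4 and 5, aged untreated replicates 1, 2 and 4, young LPS replicates 2 and 3, or aged LPS replicates 4 and 5, and without batch 1, 2, 4 or 5 (adjusted p of 0.0685 to 0.18).

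*Il18bp* (ENSMUSG00000070427, chromosome 7, 102014885 to 102018690), whose product sequesters interleukin-18, was the least changed of the soluble regulators. Its levels were 1.63 to 3.03 CPM (median 1.86) in young untreated, 1.75 to 3.13 CPM (median 2.06) in aged untreated, 2.27 to 5.15 CPM (median 3.4) in young LPS-treated and 1.57 to 3.76 CPM (median 3.09) in aged LPS-treated cultures. All 4 groups overlapped. The rise passed in young cells (1.83-fold, edgeR adjusted p = 0.00313) and not in aged cells (1.32-fold, edgeR adjusted p = 0.17), where it passed only without aged LPS replicate 2 (adjusted p = 0.049), and the difference of the responses did not pass (edgeR adjusted p = 0.511). Its exons share 80 bases with *Numa1* on the opposite strand, which had 1438 to 4517 counts per library against 19 to 69 for *Il18bp*. The setting for strand in the authors' counting is not given in the sources used here, so reads of the shared bases cannot be assigned with certainty.

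*Nlrp3* (ENSMUSG00000032691, chromosome 11, 59541568 to 59566956) encodes the sensor whose induction is the classical priming step. Young untreated cultures had 27.7, 31.5, 36, 34.8 and 30.5 CPM, and aged ones 23, 23.3, 27.5, 22.6 and 28 CPM. All aged cultures were lower than the young culture of the same number, with an overlap between the highest aged and the lowest young culture. The difference of log2 -0.37 ± 0.09 passed (edgeR adjusted p = 0.012) and was lost when batch 2 (adjusted p = 0.0879) or batch 4 (adjusted p = 0.0869) was left out. LPS brought *Nlrp3* to 285, 291, 320, 251 and 249 CPM in young and 167, 194, 211, 189 and 169 CPM in aged cells, with no overlap. It was 1.5-fold lower in aged cells under LPS (log2 fold change -0.59 ± 0.08, edgeR adjusted p = 1.37e-05). The fold rises of 8.69 and 7.46 differed by log2 -0.22 ± 0.12, adjusted p = 0.357 in edgeR.

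No read was counted for *Pycard* (ENSMUSG00000030793, chromosome 7, 127989708 to 127993867) in any of the 20 libraries, among 288237747 counts in all. A count of 0 allows up to 3 counts, 0.165 to 0.296 CPM, in a library. Over all 20 libraries together, 3 counts are 0.0104 CPM on library totals without TMM. Like *Pycard*, 7114 of 21974 protein-coding genes (32.4%) had 0 counts throughout. *Pycard* shares 485 exonic bases with the transcript model *Gm45205* on the other strand, which had 0 to 3 counts. Whether reads of *Pycard* were lost in alignment or counting was not tested.

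*Casp1* (ENSMUSG00000025888, chromosome 9, 5298517 to 5307265) and *Casp4* (ENSMUSG00000033538, chromosome 9, 5308828 to 5336783) are neighbours, 1.563 kb apart, yet their patterns differed. *Casp1* was already well expressed without LPS, at 32.8, 41.2, 35.3, 38.4 and 39.3 CPM in young and 34.6, 33.6, 31.9, 34.1 and 36.3 CPM in aged cultures, which overlapped (log2 fold change -0.13 ± 0.08, edgeR adjusted p = 0.297). After LPS the young cultures had 80.4, 112, 92.8, 89.2 and 103 CPM and the aged 64.2, 61.3, 60.1, 56.7 and 66.4 CPM. The LPS groups were apart, and the aged level was 1.55-fold lower (log2 fold change -0.63 ± 0.08, edgeR adjusted p = 2.26e-06). The rise was 2.55-fold in young and 1.81-fold in aged cells, and this difference of log2 -0.50 ± 0.11 passed (adjusted p = 0.00731 in edgeR). It was smaller in aged cells in 5 of 5 batches and passed in all 31 alternatives, with adjusted p of at most 0.0462.

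*Casp4*, the cytosolic LPS receptor, was lower in aged cells with and without LPS. Untreated, it was at 6.83, 5.43, 4.41, 4.29 and 5.06 CPM in young and 2.65, 2.69, 3.54, 3.41 and 2.53 CPM in aged cultures, with no overlap (log2 fold change -0.79 ± 0.17, edgeR adjusted p = 0.00363). After LPS it was at 66.7, 70.7, 54.2, 55.1 and 58.9 CPM in young and 33.6, 30.1, 47.2, 35.7 and 35.4 CPM in aged cultures, again with no overlap (log2 fold change -0.74 ± 0.11, edgeR adjusted p = 2.63e-05). The aged shortfall was thus of like size in both conditions, 1.73-fold and 1.67-fold, and the rises of 11.7-fold and 12.2-fold differed by log2 0.05 ± 0.20 (adjusted p = 0.939 in edgeR). *Casp4* counts were 0.129 times those of *Casp1* in the median young untreated culture and 0.618 times in the median young LPS-treated culture, against 0.08 and 0.534 in aged ones. These ratios are given per count and not per length.

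*Gsdmd* (ENSMUSG00000022575, chromosome 15, 75862327 to 75867408), the executioner of pyroptosis, had the smallest LPS response of the 9 members in aged cells. Untreated cultures had 53.9, 58.3, 60.9, 58.3 and 59.1 CPM when young and 48.2, 40.6, 44.2, 46.3 and 47.4 CPM when aged, with no overlap (log2 fold change -0.36 ± 0.08, edgeR adjusted p = 0.00435). In young cells LPS gave 89.1, 96.2, 93, 71.5 and 77.1 CPM, all above the untreated ones (1.47-fold, edgeR adjusted p = 1.24e-06). In aged cells it gave 43.3, 46.7, 54.5, 43.2 and 47 CPM, which overlapped the untreated range. The aged response was log2 0.05 ± 0.08 (edgeR adjusted p = 0.619), and it turned to -0.11 when libraries were scaled by their totals alone, a scaling that moved the median of all genes to -0.16. Aged cells were 1.82-fold lower under LPS (log2 fold change -0.86 ± 0.08, edgeR adjusted p = 6.51e-08). The responses differed by log2 -0.51 ± 0.11 (adjusted p = 0.00675 in edgeR), in 5 of 5 batches, and that call was lost when batch 1 (adjusted p = 0.0657) or batch 2 (adjusted p = 0.0503) was left out.

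**Figure D3:**
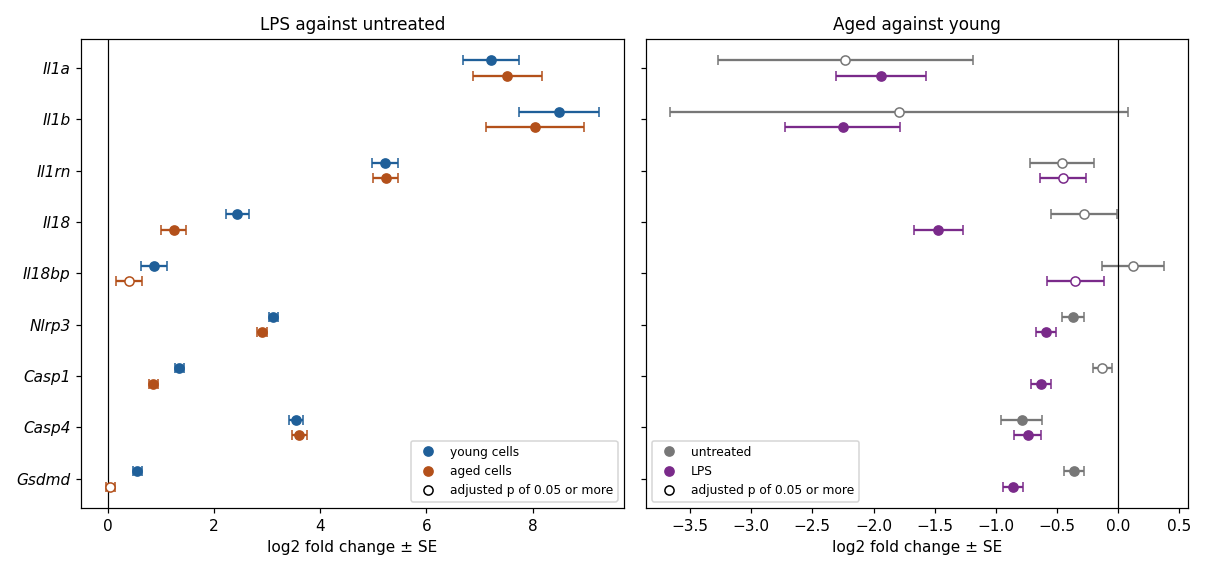
Log2 fold changes from edgeR for 9 members, with standard errors derived from its test statistic. LPS against untreated is shown in young and aged cells (left), and aged against young cells without and with LPS (right). Open points have an adjusted p of 0.05 or more. LPS responses of *Il18*, *Casp1* and *Gsdmd* were smaller in aged cells, and all points of aged against young LPS-treated cells lie below 0.

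Members whose groups did not overlap numbered 8 in the LPS response of young cells (23.9% of all genes lay wholly higher) and 7 in that of aged cells (21.0%). Both counts include *Il1b*, which entered the test only through its LPS-treated libraries, so its separation is no support for a response. Between aged and young cells, members without overlap were *Casp4* and *Gsdmd* without LPS (6.63% of all genes lay wholly lower). With LPS they were *Il18*, *Nlrp3*, *Casp1*, *Casp4* and *Gsdmd* (8.16%). The median log2 fold change of the 9 members, aged against young, was -0.37 without LPS and -0.74 with LPS, beside -0.014 and 0.008 over all genes tested. The comparisons share control groups, so the members' values in each are set side by side and not correlated.

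**Figure D4:**
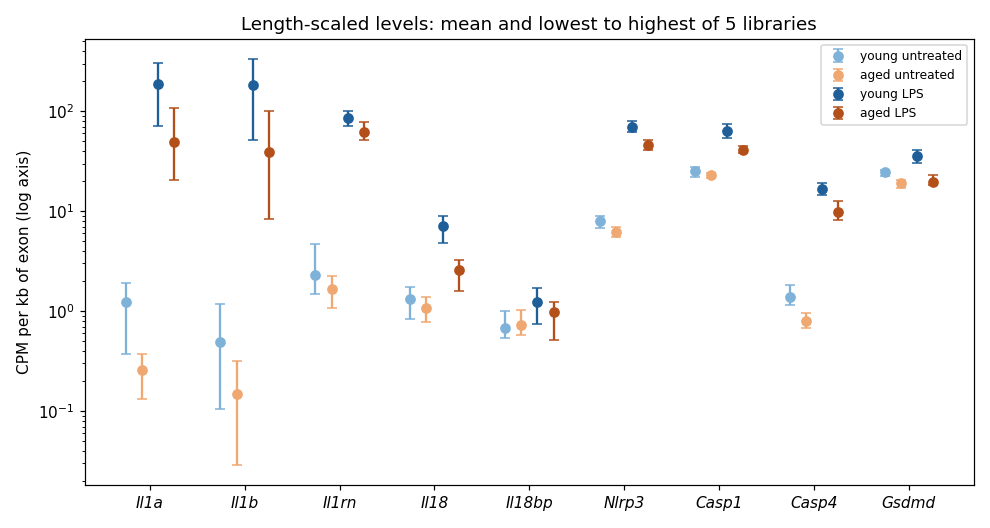
Mean CPM per kb of exon (log axis) of 9 members in each group, with bars from the lowest to the highest of 5 libraries. On this scale, untreated cells are led by *Casp1* and *Gsdmd*, and young LPS-treated cells by *Il1a* and *Il1b*. Before division by length, *Il1rn* has the highest mean CPM in young LPS-treated cells.

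The order of members by level per length changed with LPS. In young untreated cells *Casp1* (25 ± 2.25 CPM per kb of exon, SD, n = 5) and *Gsdmd* (24.4 ± 1.08) led with overlapping ranges, followed by *Nlrp3* (7.91 ± 0.832), and the cytokine genes and *Casp4* stood at 2.29 CPM per kb or less. In young LPS-treated cells *Il1a* (187 ± 99.3) and *Il1b* (184 ± 115) had the highest means with wide and overlapping spreads, followed by *Il1rn* (85.1 ± 11.3), *Nlrp3* (68.8 ± 7.39) and *Casp1* (63.8 ± 8.17). In aged LPS-treated cells *Il1rn* had the highest mean (62.3 ± 10.6), and the agonists *Il1a* (48.7 ± 34.5) and *Il1b* (38.7 ± 35.9), *Nlrp3* (45.8 ± 4.54) and *Casp1* (41.2 ± 2.5) were not separated by their spreads. *Il18* and *Il18bp* stayed at 7.15 CPM per kb or less in all groups. Length here is that of all annotated exons of a gene, merged over its transcript models, and the order depends on that choice. By CPM without length, the young LPS-treated means were 471 for *Il1rn*, 369 for *Il1a* and 351 for *Il1b*.

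Spread between cultures also set the genes apart. Under LPS the coefficient of variation over 5 cultures was 53.2% and 70.9% for *Il1a* and 62.5% and 92.9% for *Il1b* (young and aged), against 13.3% and 17.1% for *Il1rn* and 10.7% and 9.91% for *Nlrp3*. Deviations of log2 CPM from the group means, over 20 libraries that share batches and scaling, correlated at r = 0.70 between *Il1a* and *Il1b*, at 0.68 between *Il1b* and *Gsdmd* and at 0.61 between *Il1a* and *Nlrp3*. The corresponding r was 0.08 between *Il1a* and *Il1rn* and -0.20 between *Casp1* and *Casp4*. These correlations are a description with no test.

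Across the 20 libraries, the genes whose log2 CPM was most like that of *Il1a* were *Apbb2*, *Igsf6* and *Cd40* (Pearson r of 0.992 to 0.993). For *Il1b* they were *Cd40*, *Map3k8* and *Tlr2* (0.987 to 0.989), and for *Il1rn* they were *Slc11a2*, *Atp8b4* and *Arhgap10* (0.994 to 0.996). *Nlrp3* was most like *Tnfaip3*, *Rapgef2* and *Plekhm3* (0.996 to 0.997), and *Casp4* most like *Gbp3*, *Rnf213* and *Tnfrsf8* (0.995 to 0.996). *Il18* went with *Pi4k2a*, *Rnf34* and *Prkcd* (0.969 to 0.973), *Casp1* with *Ptpn12*, *Hcls1* and *Rab10* (0.981 to 0.984), and *Gsdmd* with *Cmtm6*, *Calhm6* and *Irf5* (0.951 to 0.965). *Il18bp* had the loosest match, *Slc38a6*, at 0.873. The LPS contrast is shared by all points, so high r is common among induced genes.

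Around the members, 51 genes of 6 lists were followed, of which 39 could be tested. In aged against young cells, 10 were lower and 2 higher without LPS, and 18 were lower and 3 higher with LPS (all genes: 7.81% lower and 3.71% higher, then 15.0% lower and 14.0% higher). Of the 39, 8 passed the filter on low counts only through the libraries of 1 age or 1 condition, so the counts are a description. For *Il1f9* and *Gbp5* these were the LPS-treated libraries of both ages, which fixes that they were high under LPS but not how the ages compare. For the others named, the text says whether an edgeR adjusted p comes from the fit with or without that filter. At most 3 counts per library were found throughout for *Il33*, *Il1f8* and *Il1f5* (all at 0) and for *Il1f10*. Of the other IL-1 ligands only *Il1f9*, which encodes interleukin-36γ, was tested. It had 3 counts over all young and 1 over all aged untreated libraries. With LPS it stood at 2.86 to 4.56 CPM in young and 0.825 to 1.76 CPM in aged cultures, 3-fold lower (log2 fold change -1.58 ± 0.23, edgeR adjusted p = 2.39e-05).

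Of the IL-1 family receptors, 6 of 8 were tested. *Il1r1*, the signalling receptor for both agonists, was at 0.138 to 0.466 CPM in young and 0.0673 to 0.2 CPM in aged untreated cultures. With LPS it stood at 1.45 to 2.67 CPM in young and 0.632 to 1.73 CPM in aged cells, above all untreated libraries. It passed the filter only through its LPS-treated libraries, and without the filter both rises were called (edgeR adjusted p = 2.38e-09 and 8.44e-08). The aged and young ranges under LPS overlapped. That difference passed with the filter, which *Il1r1* met through its young LPS-treated libraries (log2 fold change -0.70 ± 0.24, edgeR adjusted p = 0.0319). It did not pass without the filter (adjusted p = 0.0909), in DESeq2 (0.0764), or without young replicate 1 or 5 or aged replicate 1 or 5 (0.0649 to 0.0976). Of 22 alternatives, 11 called the difference, with adjusted p by edgeR or DESeq2 of up to 0.22. *Sigirr* encodes a receptor that dampens IL-1 signalling. It was at 0.121 to 0.69 CPM in young and 0.74 to 1.31 CPM in aged untreated cultures, with no overlap. It passed the filter only through its aged untreated libraries, where it was highest. Without the filter the log2 fold change between the ages was 1.41 ± 0.36 (edgeR adjusted p = 0.0123), and with the filter but without batch 3 the difference did not pass (adjusted p = 0.0555). Under LPS *Sigirr* gave 1 count over all 5 young libraries and 32 counts over the 5 aged ones. That is a ratio of 31.8, with an exact 95% counting interval of 5.31 to 1.3e+03. The edgeR adjusted p of 1.05e-04 for this difference is from the fit with the filter. *Sigirr* met that filter through aged libraries, so this value is no support for the difference. Over 21 alternatives, which include the fit without the filter, adjusted p by edgeR or DESeq2 was at most 0.00297.

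*Il1rl1*, the receptor for interleukin-33, fell with LPS in both ages and fell less in aged cells. It was at 11.2 to 16.2 CPM in young and 8.34 to 10.3 CPM in aged untreated cultures (log2 fold change -0.57 ± 0.13, edgeR adjusted p = 0.00597), and at 3.26 to 6.93 and 4.9 to 6.94 CPM after LPS. The difference of its responses was log2 0.80 ± 0.20 (adjusted p = 0.016 in edgeR, with 4.12% of all genes called in that direction) and was lost without batch 2 (adjusted p = 0.169) or batch 4 (adjusted p = 0.08), as was the untreated difference (adjusted p of 0.0739 and 0.051). *Il1rl2*, the receptor for the interleukin-36 ligands, reached 0.97 to 2.32 CPM in young and 0.281 to 1.16 CPM in aged LPS-treated cells, ranges that overlap. It passed the filter only through its young LPS-treated libraries. Without the filter the difference was just past the threshold (log2 fold change -1.08 ± 0.37, edgeR adjusted p = 0.0483). With the filter it was lost without young replicate 1, 2 or 5 or aged replicate 1, 2 or 4 (adjusted p of 0.0674 to 0.137). Of 22 alternatives, 11 called the difference, with adjusted p by edgeR or DESeq2 of up to 0.214.

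All 11 genes of receptor signalling were tested, and under LPS 5 were lower and 1 higher in aged cells (all genes: 15.0% lower and 14.0% higher). The 1 higher is near the share over all genes and is no result about the list. *Peli1*, a ubiquitin ligase of this pathway, was at 159 to 223 CPM in young and 86.2 to 103 CPM in aged LPS-treated cultures (log2 fold change -0.91 ± 0.07, edgeR adjusted p = 1.52e-08). Its response was smaller in aged cells, with a difference of log2 -0.75 ± 0.11 (adjusted p = 2.24e-04 in edgeR). *Myd88*, the adaptor shared by IL-1 and Toll-like receptors, was at 180 to 244 CPM in young and 161 to 189 CPM in aged LPS-treated cultures (edgeR adjusted p = 3.63e-04), and its responses differed by log2 -0.38 ± 0.10 (adjusted p = 0.023 in edgeR). The latter call was lost without young LPS replicate 2 (adjusted p = 0.0545) or aged LPS replicate 4 (adjusted p = 0.0507), and without batch 1, 2 or 5 (adjusted p of 0.0849 to 0.186). The kinase gene *Irak2* was lower in aged cells without LPS (log2 fold change -0.46 ± 0.10, edgeR adjusted p = 0.00395) and with LPS (-0.54 ± 0.09, 4.55e-05). *Irak3*, which encodes the inhibitory member of that kinase family, and *Tab2* were lower only slightly under LPS (log2 fold changes -0.30 ± 0.08 and -0.25 ± 0.05, edgeR adjusted p = 0.00616 and 0.00109).

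Of the other inflammasome sensors, 8 of 11 were tested, and 5 were lower in aged LPS-treated cells by edgeR (15.0% of all genes were lower). The group includes the NAIP proteins, which bind bacterial flagellin and secretion-system parts. *Nlrp1a* was at 7.78 to 9.33 CPM in young and 5.38 to 6.13 CPM in aged untreated cultures, and at 10.7 to 12.6 and 5.81 to 8.29 CPM after LPS, with no overlap in either condition (log2 fold changes -0.58 ± 0.09 and -0.75 ± 0.09, edgeR adjusted p = 3.48e-04 and 3.49e-06). *Naip5* was also lower without and with LPS (log2 fold changes -0.54 ± 0.11 and -0.77 ± 0.12, edgeR adjusted p = 0.00353 and 3.59e-05). For *Naip2* the difference passed under LPS (-0.54 ± 0.09, edgeR adjusted p = 1.50e-04) and, without LPS, only with the batch as a block (adjusted p = 0.0692, with the block 0.00631). *Naip6* passed under LPS (-0.44 ± 0.10, edgeR adjusted p = 0.00225). Its untreated call (adjusted p = 0.0339) was lost without any of young replicates 1 to 4 or aged replicates 2, 4 and 5 (adjusted p of 0.0512 to 0.101). Of 22 alternatives, 10 made that untreated call, with adjusted p by edgeR or DESeq2 of up to 0.183. *Nlrp1b* passed the filter only through its untreated libraries, and without the filter its fall with LPS was called in both ages (log2 fold changes -1.74 ± 0.33 and -1.94 ± 0.41, edgeR adjusted p = 2.16e-05 and 1.77e-04). In the edgeR fits with the filter, its untreated difference passed with the block (adjusted p = 0.04) and not without the block (adjusted p = 0.059). These *Nlrp1* and *Naip* genes have near-identical copies, so their separate counts are uncertain.

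Of 8 inflammasome regulators, 7 were tested, and *Tnfaip3* and *Gbp5* were lower in aged LPS-treated cells (15.0% of all genes were lower). With 7 genes tested, that number is no result about the list. *Tnfaip3*, which encodes the NF-κB inhibitor A20, was at 8.76 to 11.1 CPM in young and 5.59 to 7.99 CPM in aged untreated cultures, and at 136 to 200 and 92.2 to 117 CPM after LPS (log2 fold changes -0.62 ± 0.12 and -0.72 ± 0.09, edgeR adjusted p = 0.00221 and 3.86e-06). *Gbp5*, an interferon-inducible GTPase, had 16 counts over the young untreated libraries and 0 over the aged ones. With LPS it was at 41 to 106 CPM in young and 7.51 to 31.6 CPM in aged cultures, 4.77-fold lower with no overlap (edgeR adjusted p = 5.42e-05). Its rise in aged cells was at least 363-fold, taking 3 counts over the group as the floor.

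Among the other caspases and pyroptosis effectors, 6 of 7 were tested. *Ninj1*, needed for the rupture of the plasma membrane after pore formation, was lower without and with LPS (log2 fold changes -0.31 ± 0.06 and -0.45 ± 0.06, edgeR adjusted p = 0.00206 and 8.85e-06) and rose with LPS in both ages. *Casp8* was lower in aged cells under LPS (log2 fold change -0.37 ± 0.07, edgeR adjusted p = 5.29e-04). Its untreated difference was -0.13 ± 0.07 (edgeR adjusted p = 0.271), and the difference of its responses did not pass either (log2 -0.24 ± 0.10, edgeR adjusted p = 0.194). *Serpinb1a*, which encodes an inhibitor of inflammatory proteases, was higher in aged cells without LPS (8.33 to 24.7 CPM against 3.86 to 10.1 CPM, log2 fold change 1.28 ± 0.30, edgeR adjusted p = 0.00816) and with LPS (4.41 to 13.7 CPM against 2.24 to 7.52 CPM, 1.21 ± 0.35, 0.0111), both lost without batch 2 (adjusted p = 0.069 and 0.0894). *Gsdme*, a gasdermin cut by caspase-3, passed the filter only through its LPS-treated libraries. Its log2 fold change with LPS in young cells was 1.49 ± 0.43 without the filter (edgeR adjusted p = 0.00519), the untreated and LPS-treated ranges overlapped, and the call made with the filter was lost without young LPS replicate 5 (adjusted p = 0.0519).

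**Figure D5:**
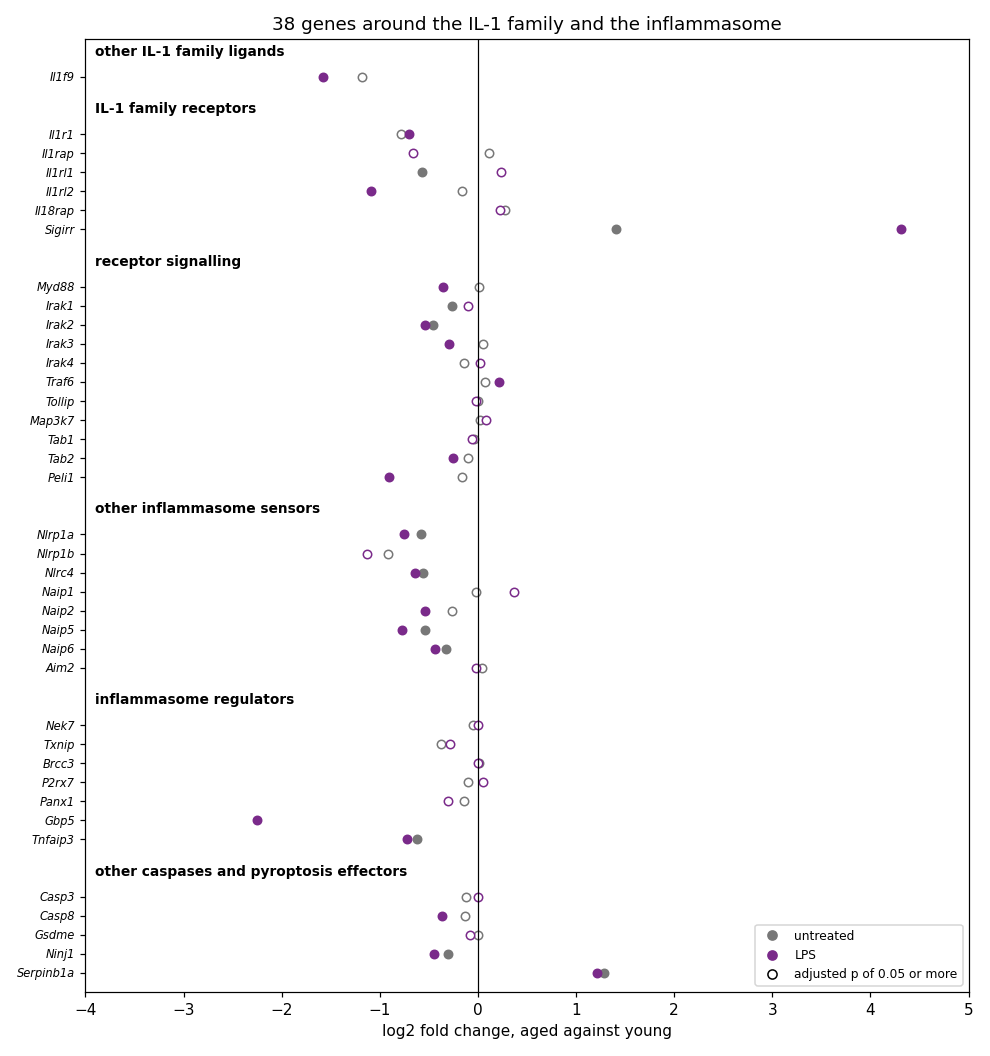
Log2 fold change of aged against young cells for 38 genes of 6 lists, untreated (grey) and with LPS (purple); open points have an edgeR adjusted p of 0.05 or more. *Gbp5* has no untreated point because its aged untreated libraries held 0 counts, and the LPS point of *Sigirr* rests on 1 count in the young group. Of the filled LPS points, 17 lie below 0 and 3 above (all genes tested: 15.0% lower and 14.0% higher).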

How the data were processed

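RNA was sequenced from 20 BV-2 cultures, 4 groups of 5. Per the submitters' notes and the study's methods, the authors made stranded poly(A) libraries, aligned paired reads to GRCm38 with STAR 2.6.1d, counted them per gene with featureCounts 1.5.1 and deposited whole-number counts without normalization. How featureCounts treated strand, reads with several alignments and genes that overlap is not given in the sources used here. Positions and exon lengths came from GENCODE M21 (GRCm38), with 55227 of 55487 identifiers found. 1 listed gene, *Irgb10*, was not found by symbol and is not analysed here.

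Counts were analysed with edgeR 4.0.16 (R 4.3.3): filterByExpr (12799 genes kept), TMM, and the quasi-likelihood test on all 20 libraries with the group as factor, for 5 contrasts, with Benjamini-Hochberg adjustment over all genes tested and a threshold of 0.05. CPM used TMM-scaled library sizes and log2 CPM a prior count of 2. Standard errors of log2 fold changes were derived from the F statistic of the quasi-likelihood test. Each is the absolute log2 fold change divided by the square root of F, so they are approximate. Scripts were tested on simulated counts. Replicate numbers are batches, so they pair the cultures. Deviations of same-numbered cultures correlated across genes at a mean r of 0.146 over all pairs of groups, 0.276 and 0.26 between untreated and LPS-treated cultures of young and aged cells. The fit with the replicate block is given where it changes a call. Comparing 40 pairs of libraries within groups gave a chi-square of 2.37 to 25.7 for each degree of freedom, so none was a repeat deposit. Intervals and limits cover counting error only.

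The members and gene lists were chosen with earlier results of these data known. All members are described. From each list the text names up to 4 genes called between aged and young cells or in the difference of responses, by smallest adjusted p, and the 2 with the largest called LPS response in young cells. Alternatives were DESeq2 1.42.0, the replicate block, other scalings, no filter, only the groups compared, a threshold of 0.01, and each batch or library left out. *Il1f6* and the other untested genes did not pass the filter. The values of 1 list gene named by this rule are not reported here.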

Additional observations from a re-analysis of the deposited data

Results flagged for a closer look

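Of 52 sets of 5 cultures examined (each member and each ratio in each group), 5 held a culture far from its group, where chance gives about 1 in 20. *Il1a* was at 214 CPM in aged LPS-treated replicate 3, against 40.7 to 85.3 CPM in the other aged LPS-treated cultures. *Il1rn* was at 25.7 CPM in young untreated replicate 1, against 8.24 to 10.6 CPM in the others. *Il18bp* was at 3.03 CPM in young untreated replicate 4, against 1.63 to 1.98 CPM. The *Casp4* to *Casp1* count ratio was highest in replicate 1 of the young cultures both without LPS (0.208, against 0.112 to 0.132) and with LPS (0.829, against 0.569 to 0.633).

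The LPS response differed between aged and young cells, by the interaction test in edgeR, for 3 members, all lower, and for 2 pathway genes lower and 1 higher (aged minus young, log2). Over all genes tested, 2.27% were called lower and 4.12% higher in this contrast. The 3 of 39 pathway genes (7.69%) are near the share over all genes, so their number is no result about these lists. The differences were -1.20 for *Il18*, -0.50 for *Casp1*, -0.51 for *Gsdmd*, -0.75 for *Peli1*, -0.38 for *Myd88* and 0.80 for *Il1rl1*, each with the same sign in 5 of 5 batches.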

How the results depend on the processing

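Counts of members called stayed within 1.5 times the reported ones under every alternative run except in the difference of the LPS responses, where leaving out single batches or libraries gave 1 to 3 members. There the pathway genes called were 1 to 4 under such omissions and 1 at a threshold of 0.01. The difference of responses of *Il1rn*, 0.01 as reported, was -0.00 with DESeq2, -0.05 with the replicate block, -0.11 with DESeq2 and the block, and -0.01 with DESeq2's size factors. It ran from -0.66 to 0.23 with batches or libraries left out, as did those of *Il1a* from -0.24 to 0.54, *Il1b* from -1.86 to 0.29 and *Casp4* from -0.06 to 0.14. Aged minus young in untreated cells ran from -0.65 to 0.08 for *Il1rn* and from -0.04 to 0.30 for *Il18bp*, and the aged LPS response of *Gsdmd* from -0.03 to 0.09. None of these values passed the test in the reported fit, and the cause of the sign changes was not tested. With library sizes alone, which moved the median of all genes to -0.231 (young) and -0.160 (aged) in the LPS responses, *Gsdmd* in aged cells was at -0.11 and *Tab2* in young cells at -0.02, where 0.20 was reported. Among members, the replicate block changed only the call of *Il1rn* between aged and young LPS-treated cells. Among the named pathway genes it changed those of *Naip2* and *Nlrp1b* in untreated cells and of *Serpinb1a* in the LPS response of young cells. Depth limits *Il1b* and *Il1a* in untreated cells, *Il18*, *Il18bp* and, at 0 counts, *Pycard*.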
